A study of Danio rerio with 6 samples.

Results

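The gamma crystallins are water-soluble structural proteins of the vertebrate lens. All probe sets of the array whose annotation names a single gene with a symbol starting with *cryg* were taken, which gave 33 probe sets for 31 genes, out of 19260 genes with a probe set of their own and 75212 probe sets in all. For *crygmx* and *crygs3*, which had more than 1 probe set, the one with the highest mean over the 6 arrays was used. The 31 genes were 15 of the *crygm2d* subseries, 11 other *crygm* genes, 2 *crygn* genes and 3 *crygs* genes. A further 10 probe sets name a *cryg* gene together with another gene and were left out of the family.

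RNA was measured in whole larvae at 4 days post fertilisation (dpf) on 6 Affymetrix Zebrafish Gene 1.0 ST arrays, 3 from *il7r*-/- larvae and 3 from WT larvae of the Tu strain. The *il7r*-/- larvae were homozygous for 1 CRISPR/Cas9 allele, a short frameshift deletion in the gene of the interleukin 7 receptor, which signals in developing lymphocytes, and they came from a single mutant line. Larvae were pooled for each sample, and the methods describe separate batches of larvae as biological replicates. The sources used here do not say whether the WT larvae were siblings of the mutants. Values are the log2 signals deposited by the authors, and every change is *il7r*-/- minus WT on the log2 scale. A gene counted as called where its fold change exceeded 1.5 and its limma p-value, adjusted by Benjamini-Hochberg for all 75212 probe sets, was under 0.05.

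The lens grows by adding fibre cells, which lose their organelles and fill with crystallins at very high concentration. The crystallins refract light and must stay soluble for as long as the lens is transparent. Gamma crystallins are compact monomers built from Greek key motifs, a fold they share with the beta crystallins. The gamma M proteins, rich in methionine, are typical of the fish lens, and in zebrafish they are encoded by many closely related genes. Gamma N proteins combine features of beta and gamma crystallins, and gamma S crystallins occur in lenses from fish to mammals.

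The arrays carried signal from the tissues of a whole larva. Mean values over the 6 arrays were 9.88 to 10.73 for 4 muscle genes, 8.65 to 9.44 for 3 neuronal genes, 6.34 to 9.84 for 3 skin genes, 4.46 to 6.06 for 3 pancreatic genes and 2.58 to 4.12 for 2 liver genes. Each tissue had 4 genes listed, and these are the ones measured. *il7r* itself was dim, with values of 1.42, 1.64 and 1.71 in *il7r*-/- arrays and 1.40, 1.80 and 1.76 in WT arrays, so it does not check the labels. WT replicate 3 stood apart: its Pearson correlation with each of the other WT arrays was 0.965 across all probe sets, against 0.977 between WT replicates 1 and 2 and 0.979 to 0.980 between *il7r*-/- arrays. Probe sets are not independent replicates, and no date or batch is given for the arrays. The number of arrays limits the precision. None of the marker genes was called. Both liver genes were lower in all *il7r*-/- arrays than in any WT array, an order that 13.4% of all genes had. Their changes were -0.50 in *ambp*, which was dim with a mean of 2.58, and -0.39 in *apoa2*. The 4 muscle genes had changes of 0.04 to 0.38. Of these, *ckma* and *tnnt3b* were higher in all *il7r*-/- arrays, as were 8.84% of all genes. The part of these tissues in the crystallin values was not tested.

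Gamma crystallin genes had lower signal in *il7r*-/- larvae in most of the family, but no single gene passed the test over all probe sets. The change was below 0 in 23 of 31 genes, while it was below 0 in 55% of all genes. All 15 *crygm2d* genes were among the 23, and as close copies they are not independent measurements. Outside *crygm2d* the family was divided, with a change below 0 in 5 of 11 other *crygm* genes, 2 of 2 *crygn* genes and 1 of 3 *crygs* genes. The median change was -0.33 over the 31 genes and -0.02 over all 19260 genes, and it was -0.80 over the 17 gamma crystallin genes above the lowest tertile of all probe sets by mean signal. Over the other 14 gamma crystallin genes it was -0.11, and over all genes above that tertile it was -0.03. In limma, 0 of the 31 genes were called lower and 0 were called higher, against 0.182% and 0.0519% of all genes (0.17% and 0.128% of all probe sets). A fold change over 1.5, without a test, was reached by 14 of the 31 genes, all of them lower in *il7r*-/- larvae, and 2.56% of all genes were lower by as much. At an unadjusted limma p under 0.05, 12 gamma crystallin genes were lower and 2 were higher, against 8.27% and 4.08% of all genes. The test named in the methods, applied without adjustment and with the same fold threshold, called 5 lower and 0 higher, against 1.98% and 0.488% of all genes. With Benjamini-Hochberg adjustment that test called 0 lower and 0 higher, and no share of all genes was taken there. In 11 of the 31 genes all *il7r*-/- arrays were lower than all WT arrays, an order that 13.4% of all genes had. In 2 genes all *il7r*-/- arrays were higher than all WT arrays, which held for 8.84% of all genes. The groups overlapped in the other 18. Since the RNA came from whole larvae, fewer lens cells and less crystallin RNA per cell cannot be told apart.

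**Figure D1:**
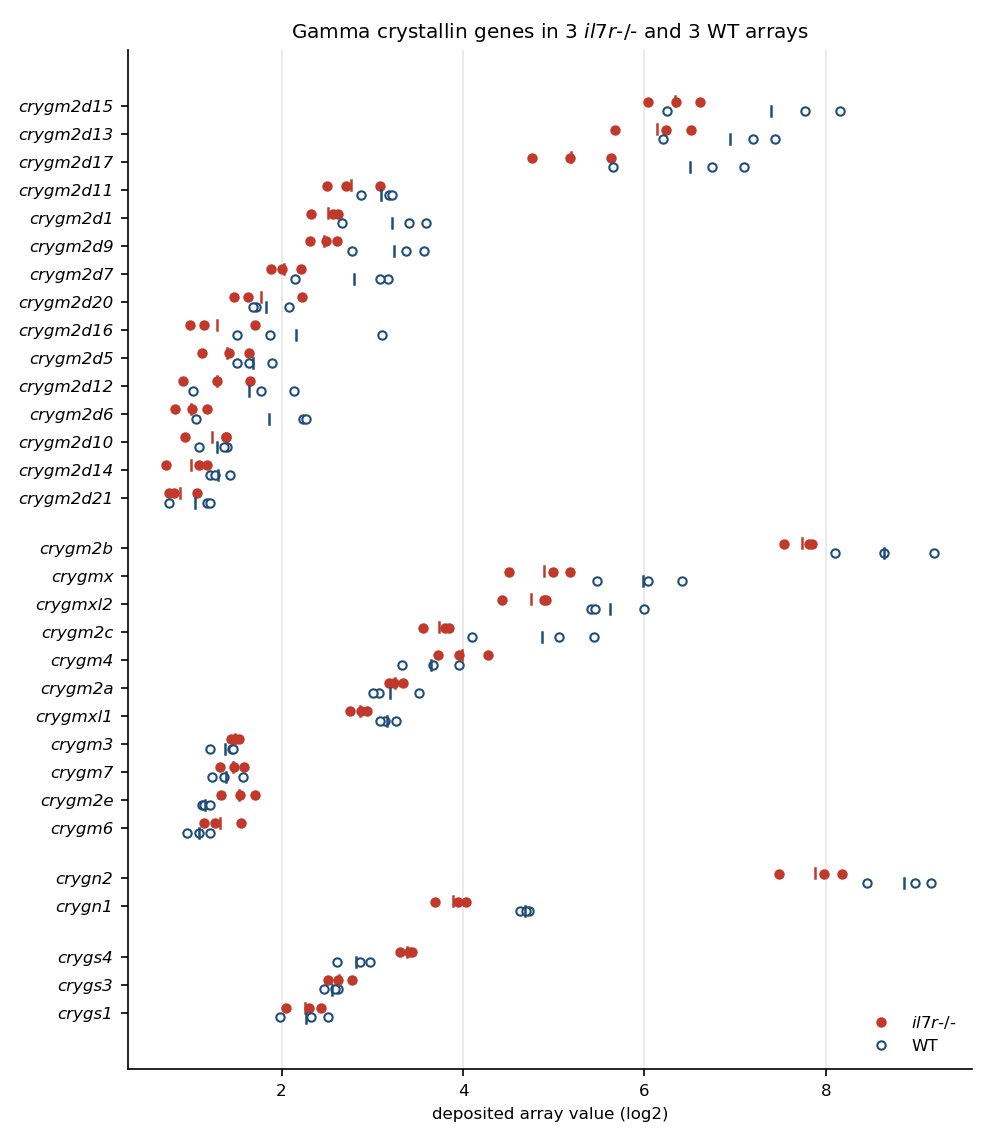
Log2 array values (x axis) of the 31 gamma crystallin genes (rows, by subseries and falling mean), with filled points for the 3 *il7r*-/- arrays, open points for the 3 WT arrays and short bars for the group means. The *il7r*-/- points lie left of all WT points in 11 genes and right of them in 2, *crygs4* and *crygm2e*.

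Both gamma N genes had lower signal in every *il7r*-/- array than in any WT array, an order that 13.4% of all genes had. *crygn1* had values of 3.69, 4.03 and 3.94 in *il7r*-/- arrays and 4.63, 4.73 and 4.70 in WT arrays. The groups lay well apart, and the WT arrays differed from one another by no more than 0.1. *crygn1* averaged 3.89 ± 0.18 in *il7r*-/- larvae and 4.69 ± 0.05 in WT larvae (SD, n = 3 each), and the change was -0.80 (standard error 0.13, limma adjusted p = 0.0868). This was the lowest adjusted p of the 31 genes. Over the probe sets that name 1 gene alone, *crygn1* was called lower (limma adjusted p = 0.0233), in a test where 0.909% of all genes were. The gene overlaps *ly97.3* in the RefSeq annotation of the GRCz12tu assembly, and which of these transcripts the probes read was not tested.

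*crygn2* had one of the strongest signals of the family. Its values were 8.18, 7.98 and 7.49 in *il7r*-/- arrays and 9.16, 8.99 and 8.45 in WT arrays. The lowest WT array, replicate 3, thus lay above the highest *il7r*-/- array, replicate 1. *crygn2* averaged 7.88 ± 0.35 in *il7r*-/- larvae and 8.87 ± 0.37 in WT larvae (SD, n = 3 each), and the change was -0.98 (standard error 0.25, 95% interval -1.58 to -0.39, limma adjusted p = 0.214). This corresponds to 50.6% of the WT signal.

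All 15 measured *crygm2d* genes had a change below 0, from -1.31 to -0.05, with a median of -0.71. The median was -0.41 without WT replicate 1, -0.99 without WT replicate 3 and -0.51 with the probe sets that name several *cryg* genes. That last setting did not include the probe sets shared by *crygm2d18* and *zgc:173493* and by *crygm2d2* and *zgc:173452*. It did include 2 dim probe sets shared by *crygm2d4* and *crygm2d3*, left out of the family, with changes of 0.25 and -0.09. None of the 15 genes was called, and 5 were lower at an unadjusted limma p under 0.05, as were 8.27% of all genes. The *crygm2d* genes are tandem copies whose sequences are close to one another, so a probe set can read RNA of more than 1 copy, and their probe sets are not independent measurements. How much they share was not tested, since no probe sequence was used here. Of the 15 probe sets, 6 had a mean above 2.465, the bound of the lowest tertile of all probe sets by mean level, and 9 did not.

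The *crygm2d* genes with the strongest signals were *crygm2d15*, *crygm2d13* and *crygm2d17*. *crygm2d17* had values of 5.18, 5.63 and 4.76 in *il7r*-/- arrays and 7.10, 6.75 and 5.66 in WT arrays. Its groups did not overlap, but WT replicate 3 lay only just above *il7r*-/- replicate 2. *crygm2d17* averaged 5.19 ± 0.43 in *il7r*-/- larvae and 6.50 ± 0.75 in WT larvae (SD, n = 3 each), and the change of -1.31 was the most negative of the 31 genes (standard error 0.40, limma adjusted p = 0.285). A dimmer probe set shared by *crygm2d17* and *crygm2d19*, left out of the family, had a change of -0.51 with overlapping groups (limma adjusted p = 0.569). *crygm2d15* had values of 6.35, 6.61 and 6.04 in *il7r*-/- arrays and 8.16, 7.77 and 6.25 in WT arrays. *crygm2d13* had values of 6.51, 6.24 and 5.68 in *il7r*-/- arrays and 7.44, 7.20 and 6.21 in WT arrays. In both genes WT replicates 1 and 2 were higher than all *il7r*-/- arrays, and WT replicate 3 lay among the *il7r*-/- arrays. The change was -1.06 in *crygm2d15* (standard error 0.48, 95% interval -2.21 to 0.09, limma adjusted p = 0.454). In *crygm2d13* it was -0.81 (standard error 0.36, 95% interval -1.67 to 0.06, limma adjusted p = 0.448). Both changes depended on single WT arrays. The change of *crygm2d15* was -1.63 without WT replicate 3 (limma adjusted p = 0.0613) and -0.68 without WT replicate 1 (limma adjusted p = 0.634). That of *crygm2d13* was -1.18 without WT replicate 3 (limma adjusted p = 0.164) and -0.56 without WT replicate 1 (limma adjusted p = 0.630).

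Among the dimmer *crygm2d* genes, *crygm2d16* and *crygm2d6* had the most negative changes. *crygm2d16* had values of 1.15, 1.71 and 0.99 in *il7r*-/- arrays and 3.11, 1.87 and 1.51 in WT arrays, a change of -0.88 (standard error 0.42, limma adjusted p = 0.479). The groups overlapped, WT replicate 1 alone was above 2, and the change was -0.41 without that array. *crygm2d6* had values of 1.18, 1.01 and 0.82 in *il7r*-/- arrays and 2.24, 2.27 and 1.06 in WT arrays, a change of -0.85 (standard error 0.33, limma adjusted p = 0.390). Here WT replicates 1 and 2 stood clear of all other arrays, and WT replicate 3 lay between *il7r*-/- replicates 1 and 2. Without WT replicate 3 the change of *crygm2d6* was -1.25 and passed the test (limma adjusted p = 0.048). Without WT replicate 1 it was -0.66 (limma adjusted p = 0.568). Both genes had a mean over the 6 arrays within the lowest tertile of all probe sets, 1.72 in *crygm2d16* and 1.43 in *crygm2d6*.

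Other *crygm2d* genes with all *il7r*-/- arrays below all WT arrays, as in 13.4% of all genes, were *crygm2d9*, *crygm2d1* and *crygm2d14*. *crygm2d9* had values of 2.61, 2.49 and 2.31 in *il7r*-/- arrays and 3.57, 3.37 and 2.78 in WT arrays, a change of -0.77 (standard error 0.22, limma adjusted p = 0.257). *crygm2d1* had values of 2.62, 2.33 and 2.57 in *il7r*-/- arrays and 3.59, 3.40 and 2.67 in WT arrays, a change of -0.71 (standard error 0.25, limma adjusted p = 0.341). In each of these genes the narrow gap between the groups lay at WT replicate 3. *crygm2d14* was dimmer, with values of 1.18, 1.09 and 0.73 in *il7r*-/- arrays and 1.43, 1.21 and 1.27 in WT arrays. *crygm2d11*, the fourth by signal, had values of 2.5, 3.09 and 2.71 in *il7r*-/- arrays and 3.18, 3.22 and 2.88 in WT arrays, a change of -0.33 (standard error 0.18, limma adjusted p = 0.543). Its groups overlapped at *il7r*-/- replicate 2 and WT replicate 3.

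The smallest changes of the subseries belonged to dim genes. *crygm2d10* had values of 1.39, 0.93 and 1.39 in *il7r*-/- arrays and 1.40, 1.09 and 1.36 in WT arrays, and its change was -0.05 (standard error 0.17, 95% interval -0.45 to 0.36). *crygm2d20* had values of 1.48, 2.22 and 1.63 in *il7r*-/- arrays and 1.72, 1.69 and 2.08 in WT arrays, with a change of -0.05 (standard error 0.22, 95% interval -0.58 to 0.48). In both genes the groups were mixed, and the sign of the change turned when single arrays were left out. The remaining 4 genes, *crygm2d7*, *crygm2d5*, *crygm2d12* and *crygm2d21*, had changes of -0.77, -0.29, -0.36 and -0.17 with overlapping groups.

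The other 11 *crygm* genes were divided, with 5 changes below 0 and 6 above 0 and a median of 0.06. Above the lowest tertile of all probe sets 5 were below 0 and 2 above, with a median of -0.88, and the 4 dim genes were all above 0. The median over all 11 was also below 0, at -0.01 and -0.04, without WT replicate 1 or 3. Of the 5 with a change below 0, all had higher values in each WT array than in any *il7r*-/- array. They were *crygm2b*, *crygmx*, *crygmxl2*, *crygm2c* and *crygmxl1*. Their order of arrays held for 13.4% of all genes, and the opposite order, found in *crygm2e*, for 8.84%. At an unadjusted limma p under 0.05 all 5 were lower and *crygm2e* was higher, against 8.27% and 4.08% of all genes. After adjustment none was called.

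*crygm2b* had the strongest signal of the *crygm* genes, with values of 7.85, 7.82 and 7.54 in *il7r*-/- arrays and 9.19, 8.64 and 8.10 in WT arrays. The *il7r*-/- arrays lay close together and the WT arrays were spread over more than 1 log2 unit. *crygm2b* averaged 7.74 ± 0.17 in *il7r*-/- larvae and 8.64 ± 0.54 in WT larvae (SD, n = 3 each), and the change was -0.91 (standard error 0.27, limma adjusted p = 0.280). *crygm2c*, a close neighbour of *crygm2b* in the genome, had values of 3.80, 3.85 and 3.56 in *il7r*-/- arrays and 5.45, 5.06 and 4.10 in WT arrays. Here too the *il7r*-/- arrays lay close together, below a wide range of WT values. *crygm2c* averaged 3.74 ± 0.15 in *il7r*-/- larvae and 4.87 ± 0.70 in WT larvae (SD, n = 3 each), and the change was -1.13 (standard error 0.33, limma adjusted p = 0.271), or 45.6% of the WT signal. Without WT replicate 3 its change was -1.52 and passed the test (limma adjusted p = 0.048), and without WT replicate 1 it was -0.84 (limma adjusted p = 0.41).

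*crygmx* and *crygmxl2* are neighbours outside the main gamma crystallin cluster. *crygmx* had values of 5.18, 4.99 and 4.51 in *il7r*-/- arrays and 6.42, 6.04 and 5.48 in WT arrays, a change of -1.09 (standard error 0.28, limma adjusted p = 0.220). *crygmxl2* had values of 4.89, 4.92 and 4.43 in *il7r*-/- arrays and 6.00, 5.41 and 5.46 in WT arrays, a change of -0.88 (standard error 0.21, limma adjusted p = 0.204). In each the group means were separated by more than the spread within either group. The dimmer probe set of *crygmx* had a change of -0.48 with overlapping groups (limma adjusted p = 0.565), so the 2 probe sets of this gene differ in the size of their change and not in its sign. Both genes overlap a long non-coding RNA in the RefSeq annotation, and its part in the signal was not tested. *crygmxl1*, which lies in the main cluster, had a smaller change of -0.30 (standard error 0.11, limma adjusted p = 0.364).

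Of the 6 *crygm* genes with a change above 0, *crygm2e* and *crygm4* had the largest. *crygm2e* had values of 1.33, 1.71 and 1.54 in *il7r*-/- arrays and 1.12, 1.15 and 1.21 in WT arrays, a change of 0.37 (standard error 0.13, limma adjusted p = 0.347). All *il7r*-/- arrays lay above all WT arrays, at signals among the lowest of the array. *crygm4*, which lies outside the main cluster, had values of 4.28, 3.96 and 3.73 in *il7r*-/- arrays and 3.67, 3.33 and 3.96 in WT arrays, a change of 0.34 (standard error 0.21, limma adjusted p = 0.584). Its groups overlapped. The changes of *crygm6*, *crygm3*, *crygm7* and *crygm2a* were 0.24, 0.11, 0.07 and 0.06, and the first 3 of these had means of 1.21 to 1.43.

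The gamma S genes had changes of -0.01 to 0.56, and none was called. *crygs4* had values of 3.40, 3.44 and 3.31 in *il7r*-/- arrays and 2.98, 2.61 and 2.87 in WT arrays. The groups did not overlap, with the *il7r*-/- arrays on top. *crygs4* averaged 3.38 ± 0.07 in *il7r*-/- larvae and 2.82 ± 0.19 in WT larvae (SD, n = 3 each), and the change of 0.56 was the highest of the 31 genes (standard error 0.13, limma adjusted p = 0.189). *crygs4* overlaps *crygm3* in the RefSeq annotation, and which of these transcripts the probes read was not tested. *crygs3* had values of 2.78, 2.51 and 2.62 in *il7r*-/- arrays and 2.62, 2.59 and 2.47 in WT arrays, a change of 0.08 (95% interval -0.21 to 0.36). *crygs1* had values of 2.05, 2.3 and 2.43 in *il7r*-/- arrays and 2.32, 2.51 and 1.98 in WT arrays, a change of -0.01 (95% interval -0.43 to 0.41). In *crygs3* and *crygs1* the groups were mixed. The 3 genes had dim probe sets, with means of 2.27 to 3.10, and whether the subseries differ from one another was not tested. The dimmer probe set of *crygs3* had a change of -0.003. Probe sets that name *crygs2* together with *lcmt2*, left out of the family, had changes of -0.30 (mean 3.70) and -0.15 (mean 1.97). In each of these the groups overlapped.

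**Figure D2:**
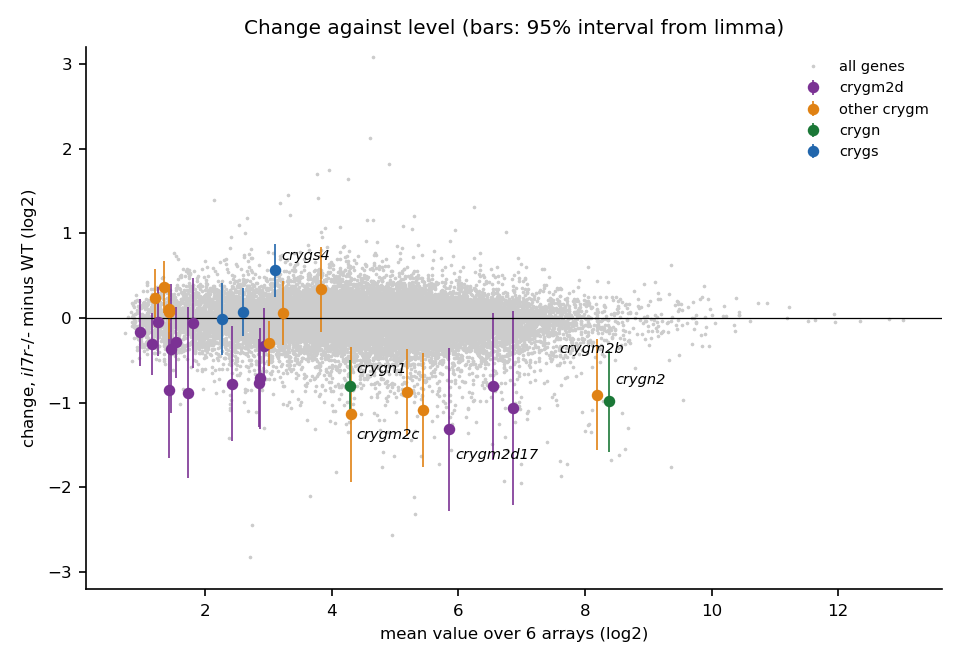
Change between *il7r*-/- and WT larvae (y axis, log2) against the mean value over the 6 arrays (x axis, log2) for the gamma crystallin genes, coloured by subseries with 95% intervals from limma, over all 19260 genes in grey. The 7 gamma crystallin genes with a mean over 5 have changes of -1.31 to -0.81, and the dimmer ones lie on both sides of 0.

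Among the 31 genes, those with stronger signal had the more negative changes. Spearman's rho between mean level and change was -0.58 and Pearson's r was -0.61 over the 31 genes, while rho was -0.08 over all genes. This is a description across genes that share the same 6 arrays, and for the *crygm2d* copies also similar sequences. Among the beta crystallins, *crybb1l3*, *crybb2* and *cryba1a*, with means of 2.88, 3.10 and 3.32, had changes of 0.21, -0.08 and -0.08. The brighter *cryba2a*, *cryba4* and *crybb1* had changes of -1.69, -1.29 and -0.97. Off that order were *crybb3* (mean 5.17, change 0.15) and *cryba2b* (mean 4.02, change -0.87). Whether the relation is particular to gamma crystallins was not tested. Signals of different probe sets do not measure the relative abundance of their transcripts. All 7 genes with a mean over 5, a split made after the values were seen, had a change below 0. Of these, *crygmx* and *crygmxl2* passed the split through the WT larvae, with means of 4.89 and 4.75 in *il7r*-/- larvae and 5.98 and 5.62 in WT larvae. Of the 31 genes, 17 had a mean above the lowest tertile of all probe sets, and 14 did not.

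The array-to-array pattern was shared by the genes with strong signal. In all 7 genes with a mean over 5, WT replicate 1 was the highest WT array and *il7r*-/- replicate 3 the lowest *il7r*-/- array, and in 6 of the 7 WT replicate 3 was the lowest WT array. The exception was *crygmxl2*, in which WT replicate 2 was the lowest. Of all 8147 genes with a mean over 5, these orders held in 2940, 2982 and 3669. The median deviation of the 7 genes from the group mean was 0.14, 0.10 and -0.38 in *il7r*-/- replicates 1, 2 and 3 and 0.49, 0.12 and -0.54 in WT replicates 1, 2 and 3. Over all 31 gamma crystallin genes it was smaller, at 0.09, 0.08 and -0.16 in *il7r*-/- and 0.13, 0.10 and -0.19 in WT arrays. Over all 19260 genes these medians lay between -0.01 and 0.02, and over the 8147 genes between -0.03 and 0.04. Among 9 cone photoreceptor genes the same medians were 0.22, 0.19 and -0.42 in *il7r*-/- and 0.19, 0.19 and -0.40 in WT arrays, and among 12 beta crystallin genes they were 0.18, 0.16 and -0.26 in *il7r*-/- and 0.20, 0.07 and -0.26 in WT arrays. Other eye genes thus moved with the gamma crystallins from array to array within each group. The pattern was not confined to eye genes. The 3 skin genes also had their lowest value in replicate 3 of each group. For *krt4* the values were 9.85, 9.76 and 9.42 in *il7r*-/- arrays and 10.51, 10.77 and 8.74 in WT arrays. The part of such shared moves in the result was not tested. Without WT replicate 3, all *il7r*-/- arrays were lower than both other WT arrays in 18 of the 31 genes, an order that 22.8% of all genes then had. In that fit 2 gamma crystallin genes were called lower, against 0.26% of all genes.

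**Figure D3:**
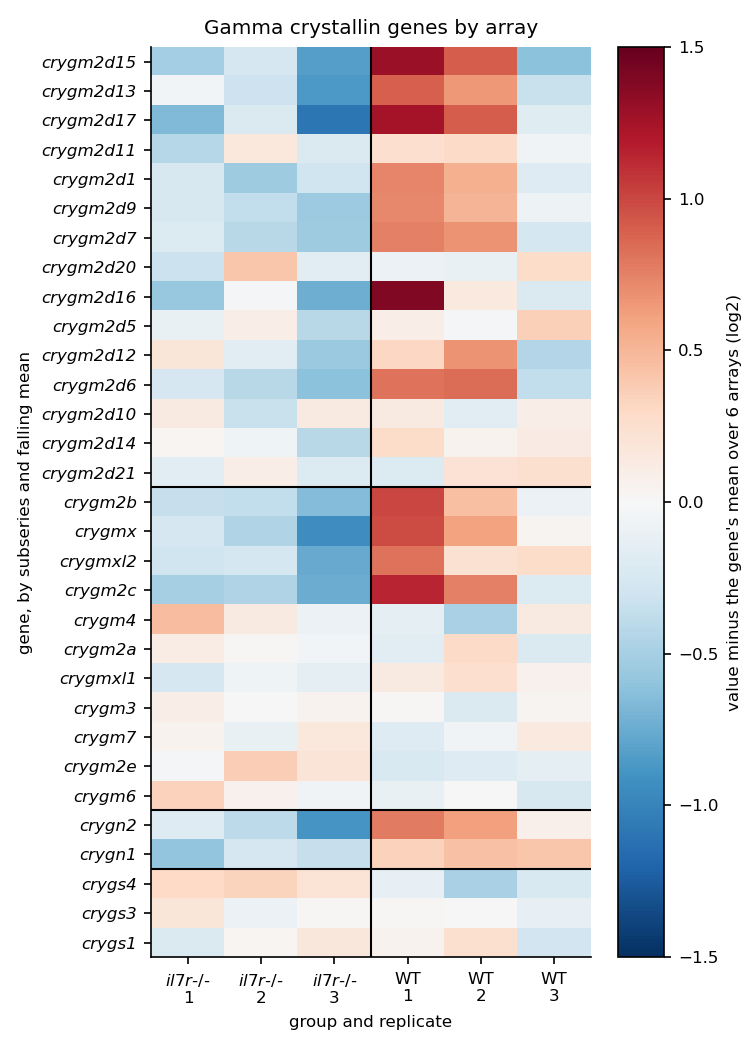
Log2 value of each gamma crystallin gene (rows, by subseries and falling mean) in each array (columns, *il7r*-/- replicates on the left and WT replicates on the right) minus the gene's mean over the 6 arrays, with red above and blue below that mean. WT replicates 1 and 2 are red across the brighter *crygm2d*, *crygm* and *crygn* genes, WT replicate 3 is near the mean or below it in most of them, and *il7r*-/- replicate 3 is the bluest column.

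Most of the family lies in 1 cluster. In RefSeq GRCz12tu, which is not the assembly the array was designed on and is used here for gene order alone, 34 *cryg* genes stand among 37 protein-coding genes of a single run, and 25 of them were measured by a probe set of their own. The other 6 measured genes, *crygmx*, *crygmxl2*, *crygn1*, *crygn2*, *crygm4* and *crygs1*, lie elsewhere. Changes varied between direct neighbours in the cluster. In the stretch from *crygm2c* to *crygm2e*, the changes in gene order were -1.13, -0.30, -0.91, 0.06 and 0.37, and the genes with the stronger signals, *crygm2c* and *crygm2b*, had the most negative ones. The *crygm2d* genes follow, with the 3 brightest of them, *crygm2d13*, *crygm2d15* and *crygm2d17*, near the *crygm2e* end. The cluster closes with *crygm3*, *crygs4* and *crygs3*, with changes of 0.11, 0.56 and 0.08. Genes outside the cluster also had negative changes, as in *crygn2* and *crygmx*.

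**Figure D4:**
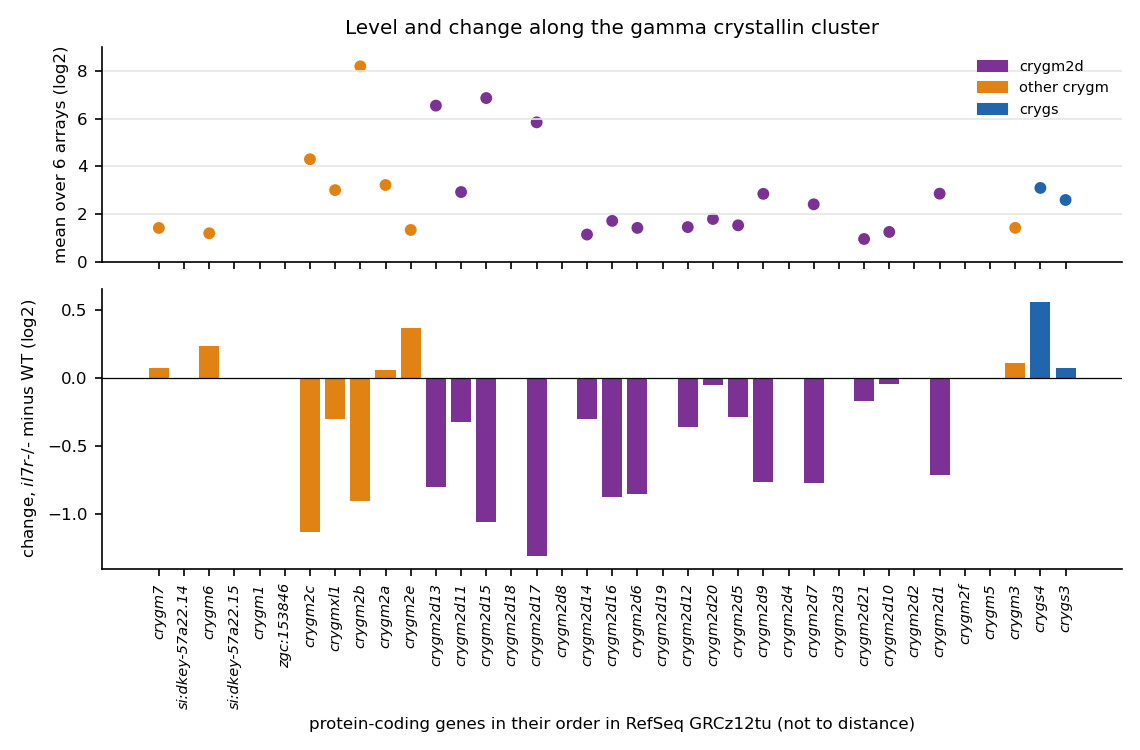
Mean log2 value over the 6 arrays (upper panel) and change between *il7r*-/- and WT larvae (lower panel, log2) for the 25 measured gamma crystallin genes of the main cluster, in the order of genes in RefSeq GRCz12tu and not to distance. Genes without a mark had no probe set of their own or are not gamma crystallins. Every *crygm2d* gene with a mark has a change below 0, and *crygs4* has the highest change.

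Other genes of the lens, and those of cone photoreceptors, were set beside the gamma crystallins. Of 12 measured beta crystallin genes (14 listed), whose proteins form oligomers in the lens, 0 were called, 10 had a change below 0 and 7 were lower in all *il7r*-/- arrays than in any WT array, an order that 13.4% of all genes had, with a median change of -0.84. The brightest were *crybb1* and *cryba4*, with changes of -0.97 and -1.29 (limma adjusted p of 0.178 and 0.127). Among the 3 alpha crystallin genes, which encode small heat shock proteins, *cryaa* had a change of -0.80 (limma adjusted p = 0.151), *cryaba* -0.07 and *cryabb* 0.20. Of 18 genes of the fibre membrane and cytoskeleton, 0 were called, 15 had a change below 0 and 10 had such an order of arrays, with a median of -0.49. The 2 brightest of them were *cdh2*, a cadherin gene also expressed in neural tissue, with a change of -0.08, and *mipa*, which encodes a lens water channel, with a change of -1.25 (limma adjusted p = 0.178). Of 14 measured lens transcription factor and RNA-binding protein genes (17 listed), 0 were called, 12 had a change below 0 and 6 had this order. Their changes ran from -0.57 to 0.11, with a median of -0.19. Their brightest members were *sox2*, with a change of -0.04, and *celf1*, with -0.21. All 9 measured cone photoreceptor genes (11 listed) were lower in all *il7r*-/- arrays than in any WT array, with a median of -1.55, and 0 were called. Their brightest members were *opn1sw1*, the ultraviolet cone opsin gene, with a change of -1.76 (limma adjusted p = 0.0939), and *gnat2*, the cone transducin alpha gene, with -1.55 (limma adjusted p = 0.166). Differences between the lists were not tested.

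**Figure D5:**
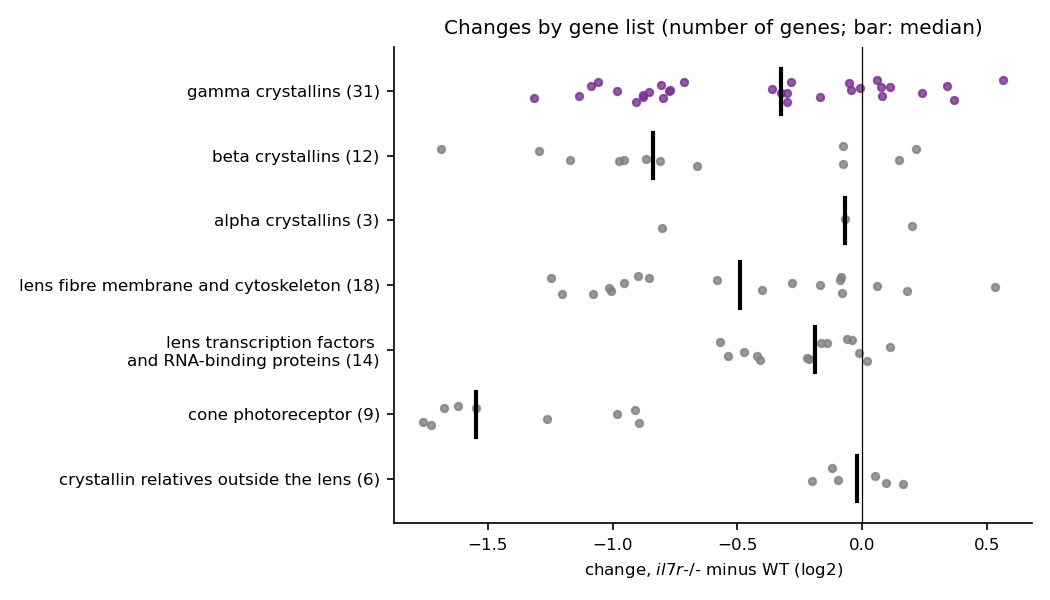
Change between *il7r*-/- and WT larvae (x axis, log2) of each gene (points) in the gamma crystallin family and in 6 other gene lists (rows, number of measured genes in brackets), with a bar at each median. The gamma crystallin genes spread from -1.31 to 0.56 around a median of -0.33.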

How the data were processed

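The authors collected 4 dpf larvae of both genotypes, hybridized Affymetrix Zebrafish Gene 1.0 ST arrays and processed them in Expression Console. RMA (background correction, normalization between arrays and 1 summary value per probe set) is named in the submitters' notes. The deposited values have a log scale whose base is not named, and they were read as log2, since their upper quartiles were 4.99 to 5.03. No further normalization was applied before the fit of genotype with limma 3.58.1 (lmFit and eBayes, two-sided) in R 4.3.3. Of 75212 probe sets, 20806 name 1 gene, 855 name several and 53551 name none in the platform annotation, which may be old. All 31 gamma crystallin symbols matched RefSeq genes of the same name.

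Values in each array were printed for all *crygn* and *crygs* genes and, within *crygm2d* and the other *crygm* genes, for the 4 brightest, the 4 most negative and the 2 most positive changes. Other genes were named after their values were seen. The members, the lists and the tests were chosen with earlier results of these data known. Each context list is represented by its brightest genes, as none was called. With 3 arrays in each group no exact permutation p falls below 0.1, so no such test was run. Alternatives are given in the closing section. No sequences of probes or genes were used here.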

Additional observations from a re-analysis of the deposited data

How the results depend on the processing

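The counts of called genes depended on the threshold and on the probe sets tested, and the changes depended on single arrays. The methods' test without adjustment called 5 gamma crystallin genes lower (*crygn1*, *crygn2*, *crygmx*, *crygmxl2* and *crygm2d9*), 7 beta crystallin genes, 1 alpha crystallin gene, 7 fibre genes and 9 cone genes, all lower, where it called 1.98% of all genes lower. With Benjamini-Hochberg adjustment it called 0 genes in each of these lists. An unadjusted limma p with the same fold threshold called 11, 8, 1, 8 and 9 in the same order and 2.35% of all genes lower, and the test over probe sets that name 1 gene called 1 gamma crystallin gene, 1 beta crystallin gene, 1 fibre gene and 7 cone genes, all lower, with 0.909% of all genes. The count of cone genes was 1 with an intensity trend and robust prior, without the lowest tertile of probe sets and with array weights, which also gave 1 fibre gene. No share of all genes was taken in these settings, so these counts cannot be set against it. Without the lowest tertile the median change was -0.80 over all gamma crystallin genes left, -0.88 over the other *crygm* genes and 0.32 over *crygs*, and 1 gene was higher in every array, since dim genes were left out. With the probe sets that name several *cryg* genes, the median of the other *crygm* genes was -0.083. With array weights the change of *crygm2d20* was 0.009.

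When single arrays were left out, 0 to 2 gamma crystallin genes were called lower and 0 to 1 cone genes were called. The 2 gamma crystallin genes and the 1 cone gene were called without WT replicate 3, a fit in which 0.26% of all genes were called lower. Genes lower in every array numbered 11 to 18, the 18 without WT replicate 3, and genes higher in every array 2 to 4, the 4 without WT replicate 2. Such an order is easier to meet with an array left out. Lower in every array were 13.4% of all genes with all 6 arrays and 22.8% without WT replicate 3. No share of all genes was taken for the higher counts with an array left out, the 4 among them. Nor was one taken for the lower counts without any array other than WT replicate 3. The *crygm2d* median ran from -0.99 to -0.41, *crygm2d15* from -1.63 to -0.68, *crygm2d16* from -1.21 to -0.41, *crygm2d11* from -0.49 to -0.19 and *crygm4* from 0.17 to 0.49. The changes of *crygm2d20* (-0.28 to 0.10), *crygm2d10* (-0.14 to 0.11) and *crygs1* (-0.15 to 0.11) turned sign. The other 16 genes printed under the rule by subseries, signal and change kept their sign without any 1 of the 6 arrays and under the other alternatives. For gamma crystallin genes outside that rule the sign was not followed. With the replicate number as a block, 0 gamma crystallin genes were called lower and 0 higher, and 1 of all probe sets was called lower and 0 higher, against 128 and 96 without it. The replicate numbers were not taken as pairs: the deviations of same-numbered arrays correlated at -0.01, 0.00 and 0.02 over all probe sets and at 0.05, 0.00 and 0.08 over genes. In the brighter gamma crystallin, beta crystallin and cone genes, however, same-numbered arrays deviated in the same direction by median, up in replicate 1 and down in replicate 3. The number of arrays and the signal near the floor of the array limit what can be called among the dim genes.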

Other observations

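The 10 probe sets that name a *cryg* gene with another gene held some of the strongest gamma crystallin signals. The probe set shared by *crygm2d18* and *zgc:173493*, a name that RefSeq lists as a synonym of *crygm2d1*, had values of 7.31, 7.30 and 6.86 in *il7r*-/- arrays and 8.41, 7.87 and 7.56 in WT arrays, with a change of -0.79 (limma adjusted p = 0.289). The one shared by *crygm2d8* and *crygm2d1* had values of 4.99, 5.06 and 4.60 in *il7r*-/- arrays and 6.43, 6.24 and 5.30 in WT arrays, with a change of -1.11 (limma adjusted p = 0.250). In both, the groups did not overlap. The probe set shared by *si:dkey-57a22.15* and *crygm1* had a change of -0.62 with overlapping groups, and that of *crygm5* and *crygm2f* a change of -0.22. Of 2 probe sets shared by *crygm2d4* and *crygm2d3*, both in the lowest tertile, 1 had values of 1.44, 1.53 and 1.41 in *il7r*-/- arrays and 1.24, 1.21 and 1.17 in WT arrays, higher in all *il7r*-/- arrays (change 0.25, limma adjusted p = 0.395), and the other had a change of -0.09. Of the 10, it was the only one with a change above 0.

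Genes that carry a crystallin name but were listed here as relatives outside the lens had changes near 0. Over 6 measured genes (7 listed), *crybg1a*, *crybg1b*, *crybg2*, *cryzl1*, *cryl1* and *crym*, the changes ran from -0.20 to 0.16 with a median of -0.02, and 0 were called. Only *crybg1b* was higher in all *il7r*-/- arrays than in any WT array, as were 8.84% of all genes.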
